A study of Mus musculus with 8 samples.

Results

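The 10 genes described here encode receptors that sense nucleotides and adenosine outside the cell, and 1 enzyme that removes their ligands. They were chosen by name: P2ry2, P2ry6, P2ry12, P2ry13, P2ry14, P2rx4, P2rx7, Adora2a, Adora2b and Entpd1, all 10 found among the 54532 genes of the deposited table. RNA was sequenced from mouse macrophages cultured from bone marrow, phagocytes that clear microbes and dead cells. The labels call the vehicle PBS where the series' own text names DMSO, and the extraction text mentions blood. Cells given PBS or spermine were each sampled at 0 h and 3 h, which makes 4 groups (PBS 0 h and 3 h, spermine 0 h and 3 h) of 2 libraries. PBS is the salt buffer used as control, spermine is a polyamine, a small positively charged molecule that cells also make themselves, and the hours count exposure to IFN-β, a type I interferon and inducer of antiviral genes. No group spent 3 h without IFN-β, so a change from 0 h to 3 h also holds any effect of time alone. For mouse strain, age, doses, length of spermine treatment and whether 2 libraries came from separate animals or cultures, the sources used here give nothing. The p-values therefore rest on library-to-library spread, which may be only technical.

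Cells that are stressed, infected or dying release ATP, ADP and UTP, and neighbouring macrophages read these nucleotides with 2 receptor families. P2X receptors are ion channels opened by ATP, and P2Y receptors are G protein coupled receptors, each with its own preferred nucleotide. The enzyme CD39, encoded by Entpd1, strips phosphate from ATP and ADP to give AMP, and CD73 turns AMP into adenosine. Adenosine then acts on its own G protein coupled receptors, of which those encoded by Adora2a and Adora2b raise cyclic AMP and restrain inflammation. P2X7 is known in macrophages for opening the way to NLRP3 inflammasome activation and the release of IL-1β.

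Of the 10 genes, 9 reached an FPKM of 1 in 2 or more of the 8 libraries (FPKM is the deposited level, fragments scaled by gene length and library) and were tested among 11421 genes with limma. P2ry12, P2ry13 and P2ry14 passed this filter only through their levels at 3 h, so that a change with IFN-β was built into their entry, and Adora2a did not pass. Changes are log2 changes of FPKM + 1, which understate those of genes near or below 1 FPKM, and a gene is said to rise, fall or change where its limma p adjusted over all genes is under 0.05. All 8 macrophage markers passed the filter, while the T cell genes Cd3e and Cd3d, the natural killer gene Ncr1 and the neutrophil gene Ly6g were at 0 in all 8 libraries. Of the other marker lists, 3 of 8 neutrophil genes passed the filter (summed level 6.06 to 10.2 FPKM over the 8 libraries), 1 of 5 dendritic cell genes, 1 of 5 B cell genes and 0 of 6 T and natural killer cell genes. The dendritic gene Xcr1 moved with the groups, at 0.118 and 0.0891 FPKM at PBS 0 h, 4.34 and 2.97 at PBS 3 h, 1.11 and 1.05 at spermine 0 h, and 6.41 and 5.53 at spermine 3 h. The B cell gene Ighm was 1.94 and 1.97 at PBS 0 h and 4.29 and 4.11 at spermine 0 h, and lay between 2.17 and 3.23 in the 3 h libraries. The part of these cells in the results was not tested. Rebuilt read totals lay between 15723437 and 17744844 per library. The deposited scaling holds the median gene near no change, and rescaling each library to the same sum over all genes (TPM) shifted the median gene's log2 change by -0.46 for IFN-β in PBS, by -0.33 for IFN-β with spermine, by -0.34 for spermine at 0 h, by -0.20 for spermine at 3 h and by 0.14 for the difference of the responses. The share of changed genes that were higher moved with it, in that order, from 49.6% to 21.1%, from 47.1% to 21.5%, from 53.3% to 20.0%, from 49.2% to 26.7% and from 42.9% to 67.1%. Changes below are therefore relative to the median gene, and a change of about 0.5 or less can vanish under another scaling. The limma voom fits below scale each library by its total of rebuilt reads, not as the deposited values are, so they too change the scaling.

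P2ry12, P2ry13 and P2ry14 are neighbours on mouse chromosome 3, and so are P2rx7 with P2rx4 on chromosome 5 and P2ry6 with P2ry2 on chromosome 7. Promoter windows of the first 5 of these, from 250 bases before to 50 after a start site, are shown, 1 for each gene, because the 3 chromosome 3 genes rose together with IFN-β and both chromosome 5 genes were lower with spermine. They are RefSeq sequences of build GRCm38.p6, read 5′ to 3′ along the gene, and of the 4 windows of P2ry14 and the 2 of P2rx7 the one farthest upstream is printed. Capitals mark a match to the antioxidant response element. The windows are chr3:59262936-59263235 (minus strand) for P2ry12, chr3:59210833-59211132 (minus strand) for P2ry13, chr3:59153443-59153742 (minus strand) for P2ry14, chr5:122707294-122707593 (plus strand) for P2rx4 and chr5:122643677-122643976 (plus strand) for P2rx7.
P2ry12: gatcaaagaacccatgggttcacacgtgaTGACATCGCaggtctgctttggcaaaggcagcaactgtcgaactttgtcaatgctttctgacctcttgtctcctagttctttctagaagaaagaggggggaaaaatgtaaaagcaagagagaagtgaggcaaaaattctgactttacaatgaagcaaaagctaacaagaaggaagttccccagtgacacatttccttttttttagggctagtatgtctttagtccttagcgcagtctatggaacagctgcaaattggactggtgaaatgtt
P2ry13: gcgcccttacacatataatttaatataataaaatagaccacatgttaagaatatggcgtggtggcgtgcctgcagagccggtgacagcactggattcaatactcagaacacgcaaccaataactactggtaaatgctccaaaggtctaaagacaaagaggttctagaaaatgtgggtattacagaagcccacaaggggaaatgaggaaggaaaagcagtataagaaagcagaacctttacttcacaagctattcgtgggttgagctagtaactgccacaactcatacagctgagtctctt
P2ry14: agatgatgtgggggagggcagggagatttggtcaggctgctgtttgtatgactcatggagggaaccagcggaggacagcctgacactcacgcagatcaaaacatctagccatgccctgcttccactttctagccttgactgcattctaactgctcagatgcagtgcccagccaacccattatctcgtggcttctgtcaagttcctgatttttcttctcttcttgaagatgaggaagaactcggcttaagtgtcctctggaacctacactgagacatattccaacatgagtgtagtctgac
P2rx4: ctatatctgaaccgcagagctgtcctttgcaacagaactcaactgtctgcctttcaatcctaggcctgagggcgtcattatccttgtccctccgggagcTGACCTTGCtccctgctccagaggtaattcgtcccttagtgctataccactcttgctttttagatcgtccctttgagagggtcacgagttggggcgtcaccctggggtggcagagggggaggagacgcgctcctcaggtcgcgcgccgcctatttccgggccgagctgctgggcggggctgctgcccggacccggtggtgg
P2rx7: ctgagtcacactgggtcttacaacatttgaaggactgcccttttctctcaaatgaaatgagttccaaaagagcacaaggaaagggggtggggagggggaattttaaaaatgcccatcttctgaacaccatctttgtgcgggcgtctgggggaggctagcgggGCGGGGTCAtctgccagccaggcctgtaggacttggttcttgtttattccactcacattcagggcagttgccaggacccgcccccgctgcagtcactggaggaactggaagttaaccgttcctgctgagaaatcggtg

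RefSeq windows were found for 8 of the 10 genes, 14 in all, since several genes have more than 1 start site; P2ry6 and Adora2a had no entry. Each was searched on both strands for the interferon-stimulated response element (GAAA, any 2 bases, GAAA), the gamma-activated site TTCNNNGAA and the antioxidant response element TGACNNNGC, which NRF2 binds. Neither interferon motif had a match in any of the 14 windows, against 3.44% of all 32851 mouse windows for the first and 8.3% for the second. The antioxidant motif, which 12.4% of all windows hold, matched once each in P2ry12 (-221 to -213 from the start site), P2rx4 (-151 to -143) and P2rx7 (-88 to -80, on the opposite strand). A match is a description of letters, and its absence says only that these letters are not in this window.

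The ADP and UDP-glucose receptors of the chromosome 3 cluster were at or below 1.25 FPKM at 0 h and rose steeply with IFN-β in PBS, and at 3 h all 3 were lower with spermine than with PBS. P2ry13 (ENSMUSG00000036362, chromosome 3, 59207892 to 59210882, minus strand) encodes a receptor for ADP. Its FPKM was 0.777 and 0.687 in the PBS 0 h libraries, 29.4 and 24.1 at PBS 3 h, 0.0955 and 0.0652 at spermine 0 h, and 4.01 and 4.77 at spermine 3 h. No pair of groups overlapped, and both spermine groups lay below the PBS group of the same hour. The log2 change was 4.0 ± 0.12 SE with IFN-β in PBS (adjusted p = 4.5e-07) and 2.32 ± 0.12 with IFN-β and spermine (adjusted p = 1.01e-05). Against PBS, spermine gave a log2 change of -0.68 at 0 h (adjusted p = 0.00431) and of -2.36 at 3 h (adjusted p = 2.8e-05). With a pseudocount of 0.1 the change of P2ry13 with IFN-β and spermine was 4.64 and that with spermine at 0 h -2.21, and with voom 5.28 and -3.33.

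P2ry14 (ENSMUSG00000036381, 59113855 to 59153618, minus strand), the receptor for UDP-glucose, kept the same order of groups. Its FPKM was 0.971 and 0.920 at PBS 0 h, 12.8 and 10.8 at PBS 3 h, 0.393 in both spermine 0 h libraries, and 3.87 and 3.86 at spermine 3 h. The 4 groups did not overlap, and the spermine libraries differed from each other by less than the PBS libraries of the same hour. It rose by 2.72 ± 0.10 SE with IFN-β in PBS (adjusted p = 1.05e-06) and by 1.8 with spermine (adjusted p = 1.29e-05), and it was lower with spermine at 0 h (-0.48, adjusted p = 0.00775) and at 3 h (-1.39, adjusted p = 0.000102). With a pseudocount of 0.1 the change of P2ry14 with IFN-β and spermine was 3.01 and that with spermine at 0 h -1.08, and with voom 2.96 and -1.55.

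P2ry12 (ENSMUSG00000036353, 59216272 to 59262871, minus strand) is the ADP receptor of platelets and microglia that clopidogrel blocks. Its FPKM was 1.25 and 0.682 at PBS 0 h, 13.8 and 9.12 at PBS 3 h, 0.925 and 0.453 at spermine 0 h, and 1.51 and 1.83 at spermine 3 h. Here the PBS and spermine libraries overlapped at 0 h, and the PBS 3 h libraries stood far above the other 6. It rose by 2.65 ± 0.24 SE with IFN-β in PBS (adjusted p = 9.84e-05), while the change with IFN-β and spermine was 0.67 (95% interval 0.11 to 1.23, adjusted p = 0.058). That last value passed with the replicate block (adjusted p = 0.0262) and in 6 other of the alternative fits listed in the closing section. At 3 h P2ry12 was lower with spermine (-2.20, adjusted p = 0.000564), and at 0 h the difference was -0.22 (interval -0.78 to 0.34, adjusted p = 0.497). Of the platelet markers, Itga2b stayed at or below 0.218 FPKM and Gp9 at or below 0.141 in every library. The platelet marker Ppbp was 0.323 and 0.321 FPKM at PBS 0 h and 2.62 and 1.88 at spermine 0 h. In the 3 h libraries it lay between 0.229 and 0.725, so it passed the filter only through spermine 0 h. The summed level of the 4 platelet genes, nearly all from Pf4, which macrophages also make, was 22.6 to 26.6 FPKM with PBS and 38.9 to 60.2 with spermine, and its part in the result was not tested. Fewer cells that express a gene and less RNA per cell cannot be told apart in these bulk libraries.

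**Figure D1:**
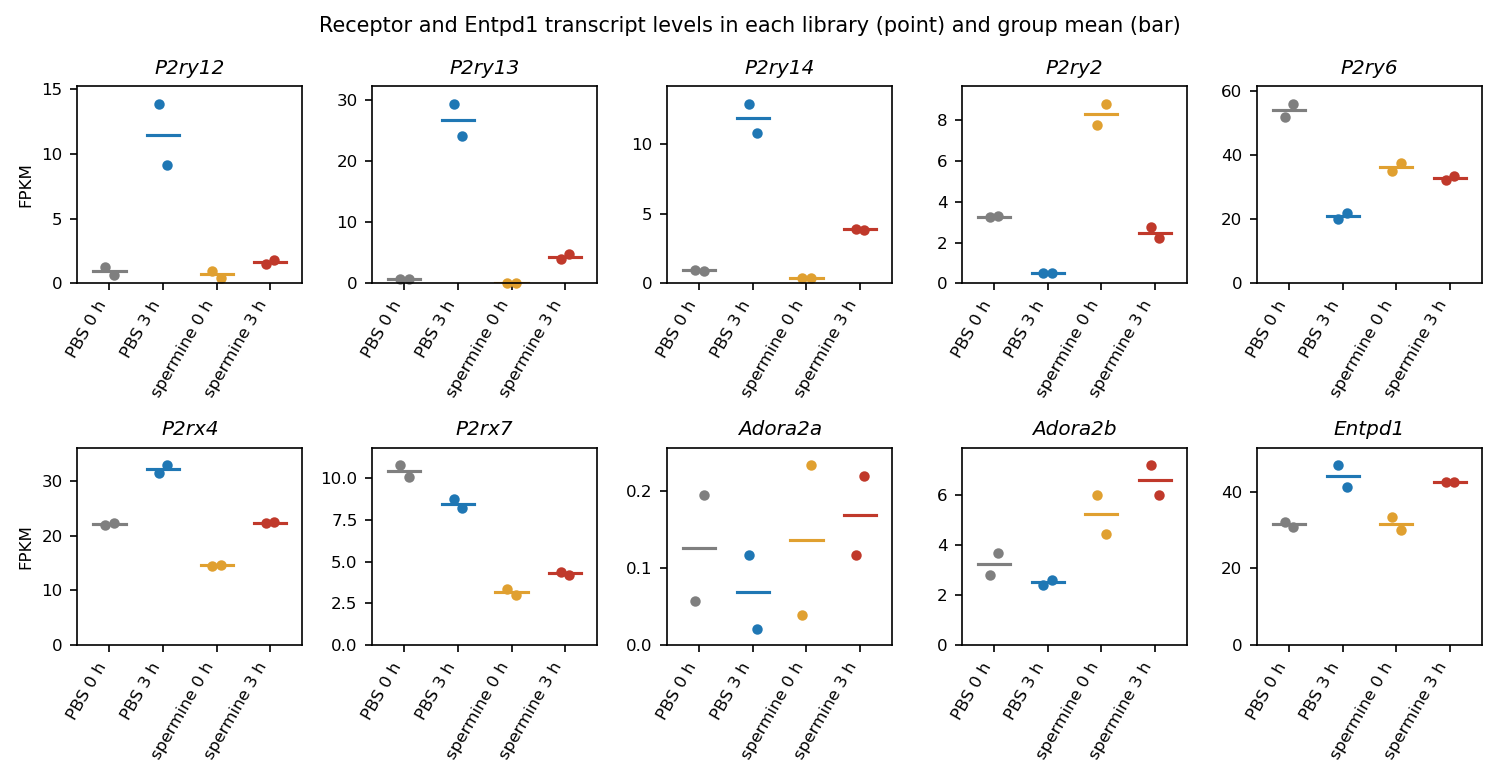
FPKM (linear axes from 0) of the 10 genes in each of the 8 libraries, points for libraries and short bars for group means. P2ry12, P2ry13 and P2ry14 are highest at PBS 3 h, P2ry2 and Adora2b are higher in the spermine groups than in the PBS groups of the same hour, and the PBS and spermine libraries of Entpd1 overlap at each hour.

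In fold terms the 3 genes of the cluster differed in how the response with spermine compared with that in PBS. From reads summed over the 2 libraries of a group and scaled as the deposited values are, P2ry12 was 11.5-fold higher at 3 h in PBS (95% interval 9.39 to 14.2, for counting error only) and 2.47-fold higher with spermine (1.8 to 3.42). P2ry13 was 36.1-fold higher in PBS (28.9 to 45.8) and 55.3-fold higher with spermine (26.5 to 139), where its 0 h level rested on 4 and 3 reads. P2ry14 was 12.4-fold higher in PBS (11.2 to 13.7) and 9.84-fold higher with spermine (8.30 to 11.7). The fold of P2ry12 was thus smaller with spermine, and its intervals did not overlap. Those of P2ry13 and of P2ry14 overlapped, which is not a test of a difference. None of these intervals covers the spread between libraries, where P2ry12 had 73 and 35 reads at PBS 0 h. At 3 h the ratio of spermine to PBS reads was 0.148 for P2ry12, 0.166 for P2ry13 and 0.329 for P2ry14.

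The difference of the responses was then tested. On the log2(FPKM + 1) scale all 3 had a smaller response with spermine: P2ry12 by -1.98 ± 0.33 SE (adjusted p = 0.0132), P2ry13 by -1.68 ± 0.17 (adjusted p = 0.00285) and P2ry14 by -0.91 ± 0.14 (adjusted p = 0.00917). With a pseudocount of 0.1 in place of 1, which weighs the low 0 h values more, P2ry12 kept its call (-2.23, adjusted p = 0.048), while P2ry13 (-0.37, adjusted p = 0.369) and P2ry14 (-0.50, adjusted p = 0.135) did not. With limma voom on rebuilt reads the values were -1.99 (adjusted p = 0.0472), 0.64 (adjusted p = 0.523) and -0.15 (adjusted p = 0.672). The P2ry12 call was lost when replicate 2 of PBS 0 h (-1.77, adjusted p = 0.0549) or replicate 1 of spermine 3 h (-1.90, adjusted p = 0.0614) was dropped, and the P2ry14 call after TPM rescaling (-0.62, adjusted p = 0.0546).

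**Figure D2:**
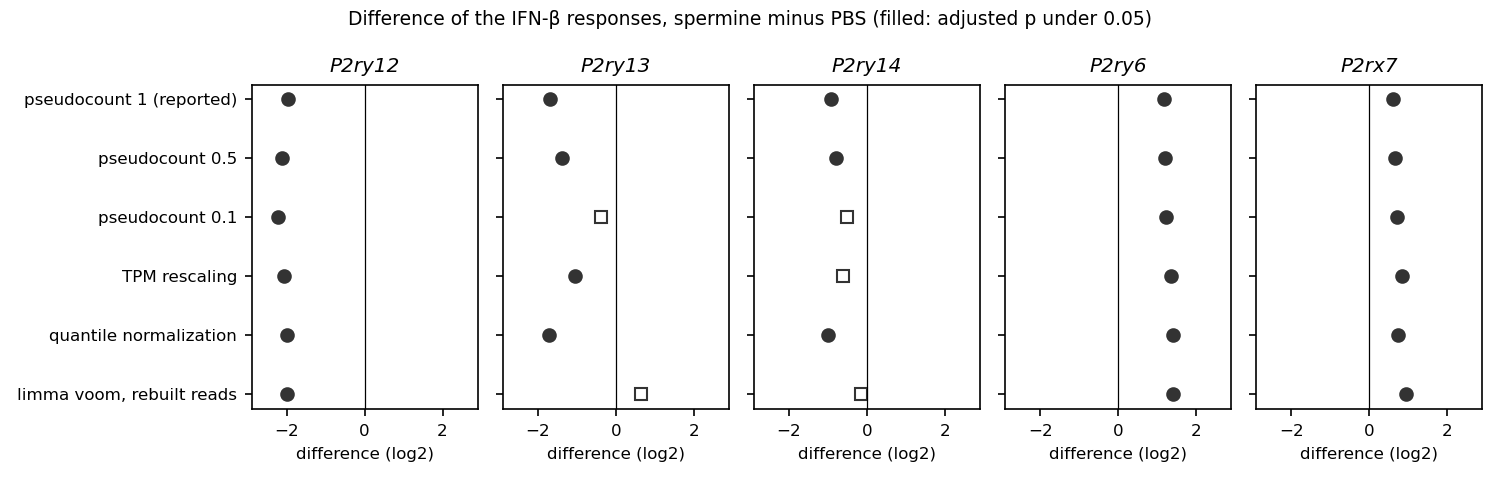
Response to IFN-β with spermine minus that in PBS (log2 units, x axis), for 5 genes under 6 settings (rows), filled where the limma adjusted p is under 0.05 and open where it is not. P2ry12, P2ry6 and P2rx7 hold their side under all 6 settings, while P2ry13 and P2ry14 move toward 0 or past it with a pseudocount of 0.1 and with voom.

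Other genes lie at the cluster. P2ry14, P2ry13 and P2ry12 lie within 149017 bases, on the minus strand inside the span of Med12l, a Mediator subunit gene on the plus strand, with Gpr171 beside P2ry14. Gpr171, a G protein coupled receptor gene 12033 bases from P2ry14, had an FPKM of 0.275 and 0.357 at PBS 0 h, 13.8 and 10.7 at PBS 3 h, 0.109 and 0.198 at spermine 0 h, and 3.75 and 5.06 at spermine 3 h. It was highest at PBS 3 h like P2ry13 and P2ry14, with a rise of 3.32 with IFN-β in PBS, of 2.22 with spermine, and a log2 change of -1.29 with spermine at 3 h, all called. Med12l did not pass the filter, with 4 and 7 reads at PBS 0 h, 192 and 206 at PBS 3 h, 1 and 0 at spermine 0 h, and 25 and 69 at spermine 3 h. The counting is not stated to use strand, but of the cluster's members only P2ry12 shares exon bases with Med12l, 9 bases or 0.4% of its own. Med12l itself shares 15.3% of its exon bases with Igsf10 on the minus strand.

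**Figure D3:**
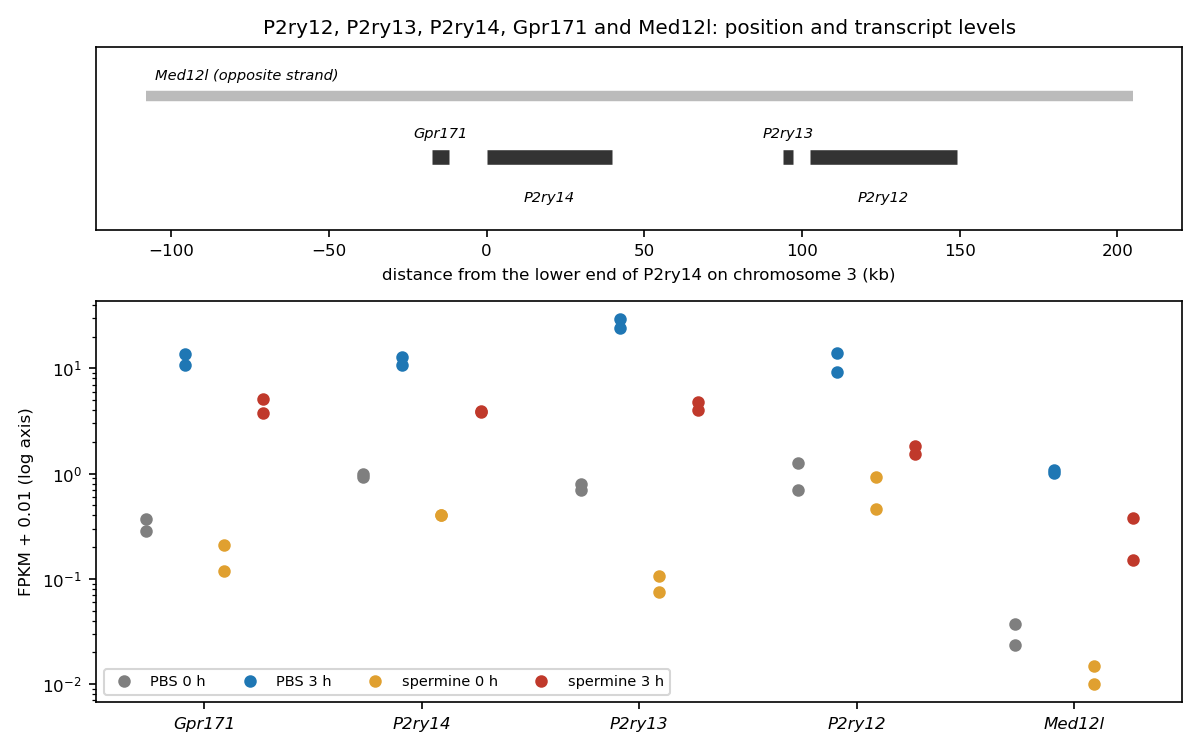
Upper panel, P2ry12, P2ry13, P2ry14, Gpr171 and Med12l on chromosome 3 by distance from the lower end of P2ry14 (kb), black on the minus strand and grey for Med12l on the plus strand. Lower panel, their FPKM + 0.01 in each library (log axis) by group; in all 5 genes plotted the PBS 3 h libraries are highest.

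The uridine nucleotide receptors of chromosome 7 fell with IFN-β in PBS, and spermine moved them in different ways. P2ry2 (ENSMUSG00000032860, chromosome 7, 100996568 to 101012866, minus strand) responds to ATP and UTP and is known for guiding phagocytes to dying cells. Its FPKM was 3.27 and 3.29 at PBS 0 h, 0.511 and 0.520 at PBS 3 h, 7.76 and 8.79 at spermine 0 h, and 2.75 and 2.23 at spermine 3 h. No groups overlapped; spermine 0 h was highest and PBS 3 h lowest. P2ry2 fell by 1.5 ± 0.10 SE with IFN-β in PBS (adjusted p = 2.69e-05) and by 1.41 with spermine (adjusted p = 5.83e-05). It was higher with spermine by 1.12 at 0 h (adjusted p = 0.000287) and by 1.2 at 3 h (adjusted p = 0.000228), which is 2.53 times and 4.83 times the mean PBS level. The difference of its responses was 0.08 (95% interval -0.26 to 0.43, adjusted p = 0.736), or 1.10 with limma voom (adjusted p = 0.0317). From summed reads P2ry2 at 3 h was 0.157 of its 0 h level in PBS (95% interval 0.119 to 0.205). With spermine it was 0.299 (0.261 to 0.341), and these intervals cover counting error only. With voom the change of P2ry2 with IFN-β in PBS was -3.17 and that with spermine at 3 h 2.15.

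P2ry6 (ENSMUSG00000048779, 100937630 to 100974649, minus strand), the UDP receptor that promotes phagocytosis in microglia, lies 21918 bases from P2ry2. It was the most abundant of the 10 genes at 0 h, with an FPKM of 51.8 and 55.9 with PBS and of 34.9 and 37.5 with spermine. At 3 h it was 19.9 and 21.9 with PBS, and 32.3 and 33.5 with spermine. The effect of spermine therefore had opposite signs at the 2 times: lower at 0 h (-0.56, adjusted p = 0.00157) and higher at 3 h (0.63, adjusted p = 0.00098). The 0 h value was -0.91 after TPM rescaling, -0.92 after quantile normalization and -0.86 with voom. P2ry6 fell by 1.33 ± 0.08 SE with IFN-β in PBS (adjusted p = 1.19e-05), and with spermine its change was -0.13 (adjusted p = 0.212). This last value was larger and called after TPM rescaling (-0.47, adjusted p = 0.00236), quantile normalization (-0.42, adjusted p = 0.00383) and limma voom (-0.47, adjusted p = 0.000906). The difference of the responses was 1.19 ± 0.11 SE (adjusted p = 0.00233), and it was called under every alternative, between 1.13 and 1.42.

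The ATP-gated channels were both lower with spermine at both times. P2rx7 (ENSMUSG00000029468, chromosome 5, 122643911 to 122691432, plus strand) encodes the channel upstream of NLRP3. Its FPKM was 10.8 and 10.1 at PBS 0 h, 8.75 and 8.20 at PBS 3 h, 3.33 and 3.00 at spermine 0 h, and 4.40 and 4.18 at spermine 3 h. All 4 spermine libraries lay below all 4 PBS libraries. It was lower with spermine at 0 h (log2 change -1.46 ± 0.08 SE, adjusted p = 3.54e-05), when the ratio of means was 0.303, and at 3 h (-0.84, adjusted p = 0.000337), when it was 0.506. With IFN-β its changes went opposite ways, -0.27 in PBS (adjusted p = 0.0266) and 0.35 with spermine (adjusted p = 0.0123), with a difference of 0.62 (adjusted p = 0.0163). The fall in PBS was larger after TPM rescaling (-0.75), quantile normalization (-0.42) and with voom (-0.82), and the difference with voom (0.94). The fall lost its call when either library of PBS 0 h (-0.23 without replicate 1, -0.31 without replicate 2) or the second of PBS 3 h (-0.23) was dropped, and in a fit of only those 2 groups (-0.27, adjusted p = 0.0584). The rise with spermine lost it without spermine 0 h replicate 2 (0.29) or spermine 3 h replicate 1 (0.32) and after TPM rescaling or with voom (0.10 and 0.11). The difference lost it without either PBS 0 h library (0.57 and 0.66) or either spermine 3 h library (0.59 and 0.65).

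P2rx4 (ENSMUSG00000029470, chromosome 5, 122707544 to 122729738, plus strand), an ATP channel that resides largely in lysosomes, starts 16111 bases beyond P2rx7. Its FPKM was 21.9 and 22.5 at PBS 0 h, 31.6 and 32.9 at PBS 3 h, 14.6 and 14.7 at spermine 0 h, and 22.3 and 22.5 at spermine 3 h. Libraries of a group lay close together, and the spermine 3 h libraries lay at the level of PBS 0 h. P2rx4 was lower with spermine at 0 h (-0.57 ± 0.06 SE, adjusted p = 0.000498) and at 3 h (-0.51, adjusted p = 0.000836). It rose with IFN-β by 0.52 in PBS (adjusted p = 0.000357) and by 0.58 with spermine (adjusted p = 0.000321), and the difference was 0.06 (interval -0.14 to 0.26). The rise in PBS lost its call after TPM rescaling (0.06), quantile normalization (0.16) and with voom (0.02), and the rise with spermine was then 0.27, 0.37 and 0.28. The 0 h difference with spermine was -0.93 after TPM rescaling and -0.88 with voom. Camkk2, a calcium-activated kinase gene that ends 1431 bases beyond P2rx4 on the other strand, was likewise lower with spermine, by a log2 change of -1.33 at 0 h and -1.09 at 3 h, and rose with IFN-β by 0.66 in PBS and by 0.90 with spermine.

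On the adenosine side, spermine came with more Adora2b, and Entpd1 did not differ detectably between spermine and PBS. Adora2b (ENSMUSG00000018500, chromosome 11, 62248984 to 62266453, plus strand) encodes the low-affinity adenosine receptor. Its FPKM was 2.82 and 3.68 at PBS 0 h, 2.41 and 2.62 at PBS 3 h, 6.02 and 4.44 at spermine 0 h, and 7.20 and 6.03 at spermine 3 h. The spermine libraries all lay above the PBS libraries. It was higher with spermine by 1.11 ± 0.16 SE at 3 h (adjusted p = 0.00184) and by 0.55 at 0 h (adjusted p = 0.0303). The 0 h call was lost without a filter (adjusted p = 0.0821), in a fit of only those 2 groups (adjusted p = 0.0848), after TPM rescaling (0.31) and with voom (0.40), and when replicate 1 of PBS 0 h (0.40) or of spermine 0 h (0.36) was dropped. Its changes with IFN-β were -0.27 in PBS (interval -0.64 to 0.11, adjusted p = 0.203) and 0.30 with spermine (interval -0.08 to 0.67, adjusted p = 0.178). The first was called after TPM rescaling (-0.76, adjusted p = 0.00799) and with voom (-0.86, adjusted p = 0.0086).

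Adora2a (ENSMUSG00000020178, chromosome 10, 75316877 to 75334784, plus strand), the high-affinity adenosine receptor, was close to silent. Its FPKM was 0.057 and 0.194 at PBS 0 h, 0.117 and 0.0202 at PBS 3 h, 0.0394 and 0.233 at spermine 0 h, and 0.117 and 0.220 at spermine 3 h, from 1 to 13 reads per library. All groups overlapped, and no difference was detectable at this depth. In a fit with no filter its log2 changes lay between -0.07 and 0.13, with adjusted p between 0.503 and 1 over the 5 comparisons.

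Entpd1 (ENSMUSG00000048120, chromosome 19, 40612366 to 40741602, plus strand), which encodes CD39, was the most abundant of the 10 genes at 3 h. Its FPKM was 32.1 and 30.8 at PBS 0 h, 46.8 and 41.1 at PBS 3 h, 33.3 and 29.9 at spermine 0 h, and 42.5 and 42.6 at spermine 3 h. PBS and spermine libraries overlapped at both times, and the 3 h libraries lay above those at 0 h. The change with IFN-β was 0.47 ± 0.09 SE in PBS (adjusted p = 0.0035) and 0.42 with spermine (adjusted p = 0.00786), and both calls were lost after TPM rescaling (0.01 and 0.09), quantile normalization (0.01 and 0.11) and with voom (-0.04 and 0.10). Against PBS, spermine gave a change of 0.01 at 0 h (interval -0.20 to 0.21) and -0.04 at 3 h (interval -0.25 to 0.16). At 0 h the sign turned after TPM rescaling (-0.34, adjusted p = 0.0183) and with voom (-0.28, adjusted p = 0.0141), where it was called.

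**Figure D4:**
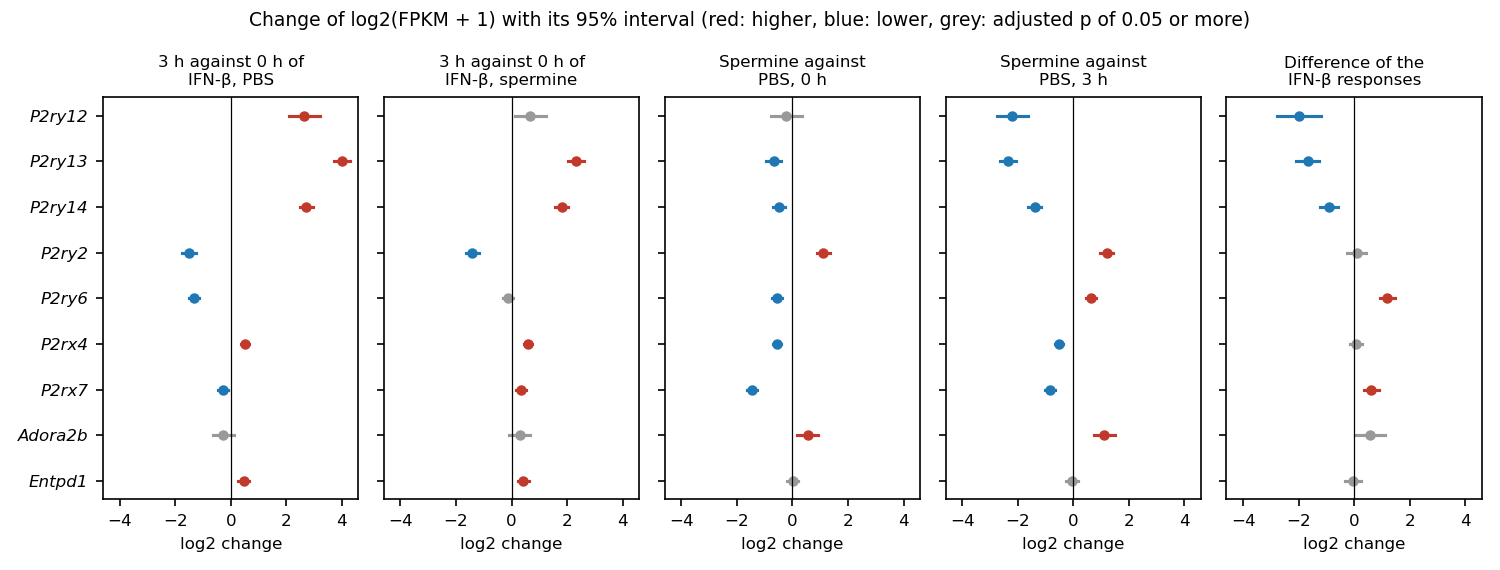
Log2 change of FPKM + 1 (x axis) with its 95% interval for the 9 genes tested, in the 5 comparisons (panels), red where higher, blue where lower and grey where the limma adjusted p is 0.05 or more. The 3 genes of the chromosome 3 cluster have the largest rises with IFN-β in PBS, 2.65 to 4.0, and the lowest values with spermine at 3 h, -1.39 to -2.36.

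Counted together, 5 of the 9 genes tested rose and 3 fell with IFN-β in PBS, against 49.6% of all genes tested that changed (24.6% higher and 25.0% lower), and their median log2 change was 0.47 against -0.02 over all genes. With IFN-β and spermine 5 rose and 1 fell (background 41.7%, 19.7% higher and 22.1% lower, median 0.42 against -0.01). Spermine at 0 h gave 2 higher and 5 lower (background 41.2%, 22.0% higher and 19.2% lower, median -0.48 against 0.01), and at 3 h 3 higher and 5 lower (background 40.5%, 19.9% higher and 20.6% lower, median -0.51 against -0.003). The difference of the responses passed for 5, 2 higher and 3 lower, against 13.6% of all genes, 5.82% higher and 7.75% lower (median 0.06 against -0.02). After TPM rescaling the counts of higher and lower members were 3 and 4, 3 and 2, 1 and 6, 3 and 5, and 2 and 2, in the same order. Over all genes they were then 1692 and 6314, 1375 and 5022, 1187 and 4743, 1339 and 3675, and 1005 and 492 of 11421. The comparisons share groups, so their counts are not independent of each other, and genes that reached the filter only at 3 h had to differ with IFN-β.

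By level, the order was P2ry6, Entpd1, P2rx4 and P2rx7 at PBS 0 h (53.9, 31.4, 22.2 and 10.4 FPKM as group means), then P2ry2 and Adora2b, whose libraries overlapped, and the cluster genes below 1 on average. At PBS 3 h it was Entpd1, P2rx4, P2ry13 and P2ry6 (44.0, 32.2, 26.8 and 20.9), then P2ry14 and P2ry12, which overlapped. The ADP receptor P2ry13 thus went from the ninth place to the third. At spermine 3 h Entpd1, P2ry6 and P2rx4 led (42.5, 32.9 and 22.4), with Adora2b at 6.61 above P2ry13 at 4.39 and P2rx7 at 4.29, which overlapped. At spermine 0 h P2ry2, at 8.28, stood above Adora2b at 5.23 and P2rx7 at 3.16.

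Genes whose log2(FPKM + 1) followed a member most closely over the 8 libraries, by Pearson's r among 11420 others, were sought for each member tested. These r values are a description over libraries that share 4 groups. The closest were Parp11 (r = 0.9995) and Tcf4 (0.9991) for P2ry14, Kif5c (0.9991) and Asb13 (0.998) for P2ry13, and Paxbp1 (0.997) and Yipf6 (0.993) for P2ry12. P2rx4 was closest to Bcl6 (0.998) and Sema4d (0.995), and P2rx7 to Plscr1 (0.995) and Tifab (0.993). For P2ry2 they were Tpm1 (0.997) and Preb (0.996), and for P2ry6 Aldh9a1 (0.991) and Sorbs3 (0.988). Entpd1 lay closest to Cab39l (0.990) and the pseudogene Slfn10-ps (0.988), and Adora2b to Ppp1ca (0.976) and the pseudogene Esd-ps (0.963). Among the members themselves, P2ry13 and P2ry14 had r = 0.997, and P2ry2 and P2rx4, which moved oppositely in all 4 simple comparisons, r = -0.989.

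The remaining genes of purine signalling show which other parts of the system the macrophages expressed. Of 11 other receptors with P2 or adenosine receptor symbols 3 passed the filter: P2ry1, Adora3 and P2ry10b, which bears the family's name but is known as a lysophosphatidylserine receptor. P2ry1, another ADP receptor, fell with IFN-β in PBS (-0.72, adjusted p = 0.00687), and P2ry10b rose there (0.41, adjusted p = 0.043). Adora3 encodes an adenosine receptor linked to Gi. Its level went from 0.187 and 0.200 FPKM at PBS 0 h to 3.80 and 3.40 at PBS 3 h. With spermine it went from 0 and 0.0442 at 0 h to 0.881 and 0.741 at 3 h. It rose by 1.95 in PBS and by 0.82 with spermine. Its responses differed by -1.12, and at 3 h it was lower with spermine (-1.35), all called. As a ratio of means Adora3 rose 18.6-fold in PBS and 36.7-fold with spermine, where the 0 h libraries held only 0 and 3 reads. Its response was thus smaller with spermine on the log2(FPKM + 1) scale, but not as a fold. Adora3 shares 20.9% of its exon bases with Tmigd3 on the same strand, so its reads cannot be assigned with certainty. Adora3 passed the filter only through PBS 3 h, P2ry1 only through PBS 0 h, and Enpp4 and Gpr171 only through the 3 h libraries. Their entry thus favoured a change with IFN-β.

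Of 22 enzymes that act on nucleotides, 12 were tested. With IFN-β in PBS 4 rose and the other 8 did not pass, where 49.6% of all genes changed. With spermine 3 rose and 2 fell, where 41.7% did. Among those that rose in PBS, Ada, Nme2 and Enpp4 passed the filter only through the 3 h libraries, so their entry favoured a rise. Nt5e, which encodes CD73, had group means between 0.859 and 1.53 FPKM, and its adjusted p lay between 0.0524 and 0.535 over the 5 comparisons. Enpp4, a phosphodiesterase of the cell surface, rose from 0.440 and 0.370 to 28.3 and 25.0 FPKM with IFN-β in PBS (4.30). With spermine it rose by 3.23, from 0.106 and 0.121 to 9.74 and 9.17 FPKM. Its log2 change was -1.40 with spermine at 3 h and -1.07 for the difference. In fold terms its mean rose 65.7-fold in PBS and 83.5-fold with spermine, where the 0 h level rested on 8 and 10 reads. The smaller log2(FPKM + 1) response with spermine thus did not hold in fold terms. Pnp, the purine nucleoside phosphorylase that consumes inosine and guanosine, rose by 3.83 in PBS and by 4.31 with spermine; it shares exon bases with the overlapping Gm49342, so its reads are uncertain too. Of the 12 tested, 3 were lower with spermine at 0 h and 2 at 3 h, and the others did not pass (19.2% and 20.6% of all genes were lower).

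Among 12 release channels and nucleoside transporters tested, 3 rose and 6 fell with IFN-β in PBS (24.6% and 25.0% of all genes), and 4 rose and 5 fell with spermine (19.7% and 22.1%). Against PBS, 3 were higher and 2 lower with spermine at 0 h (22.0% and 19.2% of all genes), and 4 higher and 3 lower at 3 h (19.9% and 20.6%). Panx1, the pannexin channel through which cells let out ATP, had an FPKM of 4.00 and 4.57 at PBS 0 h, 2.20 and 1.83 at PBS 3 h, 19.8 and 20.5 at spermine 0 h, and 10.4 and 10.1 at spermine 3 h. It was higher with spermine by 2.0 at 0 h and by 1.90 at 3 h. Gja1, which encodes connexin 43, was higher by 1.65 and by 2.11, and the exporter Abcc1 by 1.76 and by 1.92. Gja1 passed the filter only through the spermine libraries, so its entry favoured a higher level with spermine. Lrrc8a, among those that fell with IFN-β, passed only through the 0 h libraries. Slc28a2, a sodium-driven importer of purine nucleosides, rose with IFN-β by 4.46 in PBS and by 3.86 with spermine, and had a log2 change of -1.30 with spermine at 3 h. Its near relative Gm14085 lies nearby, so its reads are uncertain. The difference of the responses was -0.60 for Slc28a2 (adjusted p = 0.0557).

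All 22 signal transducers listed passed the filter, and 6 rose and 10 fell with IFN-β in PBS (24.6% and 25.0% of all genes). Past 1 log2 unit, the falls were those of the arrestin Arrb1 (-2.14), the adenylyl cyclase Adcy9 (-1.34), the arrestin Arrb2 (-1.12) and the receptor kinase Grk2 (-1.05). The rises past 1 log2 unit were those of Crem (1.85), Rgs1 (1.74) and Rgs2 (1.45). Rgs1 and Rgs2 like arrestins help to end G protein signals. Crem also rose with IFN-β and spermine (1.82), and was higher with spermine at 0 h (1.32) and at 3 h (1.29). With spermine Arrb1 again fell with IFN-β (-1.46), and 5 transducers rose and 8 fell (19.7% and 22.1% of all genes). Rgs1 was higher with spermine by 2.01 at 0 h and had a difference of responses of -1.84, and Rgs2 had log2 changes of -1.06 with spermine at 0 h and -1.78 at 3 h. Of the 22, 5 were higher and 8 lower with spermine at 0 h (22.0% and 19.2% of all genes) and 9 higher and 4 lower at 3 h (19.9% and 20.6%). The difference of the responses passed for 9, 7 of them higher and 2 lower (5.82% and 7.75% of all genes).

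Of 8 genes listed around the inflammasome that P2X7 activates, 5 rose and 1 fell with IFN-β in PBS (24.6% and 25.0% of all genes). With IFN-β and spermine 5 rose (19.7%). Casp4, the caspase that senses lipopolysaccharide in the cytosol, rose by 4.02 and by 3.54. With spermine 2 of the 8 were higher and 3 lower at 0 h (22.0% and 19.2% of all genes). The higher ones were Il1b (0.90) and Nlrp3 (0.73), and the adaptor Pycard, at -1.52, was among the lower ones. At 3 h 1 was higher and 4 were lower (19.9% and 20.6%). The 1 higher at 3 h was Il1b (1.81), the cytokine released by this route, with 1.54 and 1.17 FPKM at PBS 3 h and 7.34 and 7.18 at spermine 3 h. Pycard shares 12.8% of its exon bases with Gm45205 on the other strand. P2rx7 itself was lower with spermine at both times, as given above.

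Other genes near the members did not share one pattern. Fchsd2, near P2ry2, rose with IFN-β by 0.91 in PBS and by 0.75 with spermine, where P2ry2 fell. Zswim7, 770 bases from Adora2b on the other strand, was higher with spermine at 3 h (0.56), and its neighbour Ttc19 had adjusted p between 0.0839 and 0.76. Specc1l, near Adora2a, had adjusted p between 0.0514 and 0.748, and Gucd1 fell with IFN-β by 0.75 in PBS and by 0.65 with spermine.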

How the data were processed

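RNA of 8 libraries, 2 in each of 4 groups, was sequenced, and per the submitters' processing notes the tools were CASAVA 1.8, fastp, HISAT2 2.0.5, featureCounts 1.5.0-p3 and DESeq2 1.20.0 with build GRCm38 (mm10). The authors deposited FPKM values per gene; on strandedness and reads with several matches the sources used here give nothing. FPKM times gene length is a whole multiple of 1 step per library for 100% of values (tolerance 0.001 read), which gave the rebuilt reads. Genes with FPKM of at least 1 in 2 libraries were tested with limma 3.58.1 (R 4.3.3) on log2(FPKM + 1), as 4 group means with a variance trend, two-sided and with Benjamini-Hochberg adjustment over all genes of a comparison. The 5 comparisons are IFN-β in PBS, IFN-β with spermine, spermine at 0 h, spermine at 3 h, and the difference of the responses; they share groups. The fit was tested on simulated data. Intervals of read ratios cover counting error only. The members and all gene lists were chosen with earlier results of these data known. Of the other purine genes, all lists together, up to 4 highest and 4 lowest called genes of each comparison are named. These have a log2 change of at least 1 in size. The neighbours that passed the filter are named too. Nt5e, P2ry1, P2ry10b, Crem, Nlrp3 and values of named genes in further comparisons were chosen after their values were seen. Alternatives were other pseudocounts, filters and scalings, limma voom on rebuilt reads, fits of 2 groups, a replicate block, no trend and each library left out. Some items are not reported here.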

Additional observations from a re-analysis of the deposited data

Results flagged for a closer look

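Of the 9 genes tested, 5 had an IFN-β response that differed between spermine and PBS by the limma test of the difference itself, against 13.6% of all genes tested. P2ry6 had a difference of 1.19 log2 units, with a log2 change of -1.33 in PBS and -0.13 with spermine. P2ry12 had -1.98, P2ry13 -1.68 and P2ry14 -0.91, each a smaller log2(FPKM + 1) change with spermine than in PBS. P2ry13 and P2ry14 lost this call with a pseudocount of 0.1 and with limma voom, which gave 0.64 and -0.15. From summed reads P2ry13 rose 36.1-fold in PBS and 55.3-fold with spermine, and P2ry14 12.4-fold and 9.84-fold. P2rx7 had 0.62, with a log2 change of -0.27 in PBS (-0.82 with limma voom) and 0.35 with spermine.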

How the results depend on the processing

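Of 45 pairs of gene and comparison, 34 were called, and 24 of these kept direction and call under every alternative run. Sign turned with limma voom on rebuilt reads, chosen after seeing the data, for P2ry13 in the difference of the responses (0.64) and for Entpd1 with IFN-β in PBS (-0.043), with spermine at 0 h (-0.28) and in the difference (0.14). It turned for Entpd1 at 0 h and in the difference after TPM rescaling (-0.34 and 0.088) and quantile normalization (-0.25 and 0.10). The voom fit scaled each library by its total of rebuilt reads, so it too left the deposited scaling. The cause was not tested. Leaving out 1 library gave Entpd1 -0.071 to 0.082 at 0 h, -0.14 to 0.047 at 3 h and -0.14 to 0.042 in the difference, and P2ry2 -0.022 to 0.19 in the difference. The count of all genes changed with IFN-β in PBS was 8537 with voom against 5661. Members with a difference of responses numbered 3 with a pseudocount of 0.1 against 5, and 3 to 5 with 1 library left out (3 if either replicate 2 of PBS 0 h or replicate 1 of spermine 3 h is dropped). All genes with one numbered 1550, and 520 to 1671 with 1 library left out: 647 without PBS 0 h replicate 1, 520 without replicate 2, 886 without PBS 3 h replicate 1, 753 without spermine 0 h replicate 1, and 554 and 627 without spermine 3 h replicate 1 and 2. Spermine at 0 h changed 4706 genes (2999 to 4897, lowest without PBS 0 h replicate 2), and at 3 h 4626 (2912 to 4645, lowest without spermine 3 h replicate 1). A lone library left in a group is assumed to vary like the other groups. The edgeR and DESeq2 alternatives were not run.

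The labels give groups the same replicate numbers, but nothing says that a number marks an animal or culture, and the deviations of same-numbered libraries correlated from -0.126 to 0.371 between groups. With the replicate block P2ry12 was called with IFN-β and spermine (0.67, adjusted p = 0.0262), and no other member's call changed. All genes changed then numbered 5956, 5033, 4996, 4978 and 1813. With 2 libraries a group and 1 to 13 reads for Adora2a, small changes were not detectable.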
